A study of Mus musculus with 24 samples.

Results

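The CXC and CX3C chemokine ligands were described in RNA of mouse brain microvessels after experimental stroke. They were the 10 genes Cxcl1, Cxcl2, Cxcl3, Cxcl9, Cxcl10, Cxcl11, Cxcl12, Cxcl14, Cxcl16 and Cx3cl1, found by symbol among the 17270 genes of the expression table. The symbols were chosen by a reading of results of these data, namely the differences between tMCAO and sham ipsilateral vessels at both time points. In these comparisons the members are therefore described without a test. Comparisons between the tMCAO hemispheres share the ipsilateral tMCAO vessels with them. Their p-values are thus not independent of the choice at either time point. All mice were male C57BL/6J, 10 to 12 weeks old, and underwent either transient occlusion of the right middle cerebral artery for 60 min (tMCAO) or sham surgery, in which the filament was advanced and withdrawn at once. Vessels were isolated 24 h or 7 days later from the ipsilateral (right) and the contralateral hemisphere. This gave 8 groups of 3 libraries, and each library pooled 3 hemispheres of the same kind, so that a p-value measures the spread between pools and not between single mice. Per the study's methods, mice were perfused before isolation, meninges were peeled off, and libraries judged to be outliers were left out before 3 per group were analysed. No untreated mice were among the groups, and every group had anesthesia and neck surgery in common.

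Chemokines are small secreted or membrane-bound proteins that direct the migration of cells carrying the matching G protein-coupled receptors. CXCL1, CXCL2 and CXCL3 recruit neutrophils through CXCR2, while the interferon-inducible CXCL9, CXCL10 and CXCL11 attract T and NK cells through CXCR3. CXCL12 is a constitutive ligand of CXCR4 and of the scavenging receptor ACKR3 and is made by brain endothelium and mural cells. CX3CL1 (fractalkine) and CXCL16 are made as membrane-bound proteins that can be shed, and they bind CX3CR1 on microglia and monocytes and CXCR6 on T cells, respectively. CXCL14 is a homeostatic chemokine whose receptor is not settled.

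Values are normalized counts, that is whole numbers of reads per gene after scaling of the libraries to a common depth, and the totals lay between 15924780 and 18787932 per library with a median of 16953257. Log2 values correlated between replicates of a group with r between 0.967 and 0.988. Differences are given on the log2(normalized count + 1) scale with their standard errors (SE) from a limma fit of all 8 groups. On this scale, changes of low genes are understated. A gene was called when its Benjamini-Hochberg adjusted p was under 0.05 and its fold was above 1.5. Of the 10 ligands, 9 had a mean above 5 over the 24 libraries and were tested among 15982 genes. Cxcl9, with a mean of 4.42, was not tested. Cxcl3 passed this filter only through the tMCAO ipsilateral libraries of 24 h, since its mean over the other libraries was 0.62, and Cxcl11 would not have passed without the sham ipsilateral (mean 3.76) or the sham contralateral libraries of 7 days (mean 4.95). For comparisons with these groups no p-value is given for them. All 10 endothelial marker genes were present, with a summed level of 307195 to 478014 per library. Those of neurons summed to 1108 to 24246, those of astrocytes to 11175 to 55437 and those of 8 neutrophil genes to 97 to 6235. No gene of these 4 marker lists was at 0 in every library of a group. In such mixed tissue, fewer cells of a type and less RNA per cell cannot be told apart.

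Per kilobase of exon, Cxcl12 and Cx3cl1 stood above the other ligands in the control vessels. In contralateral vessels 24 h after sham surgery, mean levels were 2361 ± 245 normalized counts per kilobase for Cxcl12 and 655 ± 14.9 for Cx3cl1 (SD, n = 3). Cxcl14 followed with 102 ± 12.4, Cxcl16 with 52.7 ± 5.01, Cxcl1 with 25.6 ± 3.33 and Cxcl10 with 11.8 ± 5.30. Cxcl2, Cxcl3, Cxcl9 and Cxcl11 were all at 1.93 or less. Down to Cxcl2, neighbours in this order lay further apart than the sum of their SDs, whereas Cxcl9 and Cxcl11 did not. In ipsilateral vessels 24 h after tMCAO the order was another one. Cxcl12 was at 813 ± 42.7 and Cxcl1 at 581 ± 207, no longer separated from Cx3cl1 at 572 ± 92.5. Behind them came Cxcl14 (104 ± 23.6), Cxcl3 (90.6 ± 42.8), Cxcl16 (85.0 ± 3.35), Cxcl2 (66.9 ± 37.6) and Cxcl10 (57.3 ± 48.2), whose neighbours did not differ beyond their SDs. The per-kilobase level of Cxcl3 rests on an exon length of 1016 bases within the deposited gene span. With a longer transcript outside that span the length would be 3498 bases and the level lower.

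**Figure D1:**
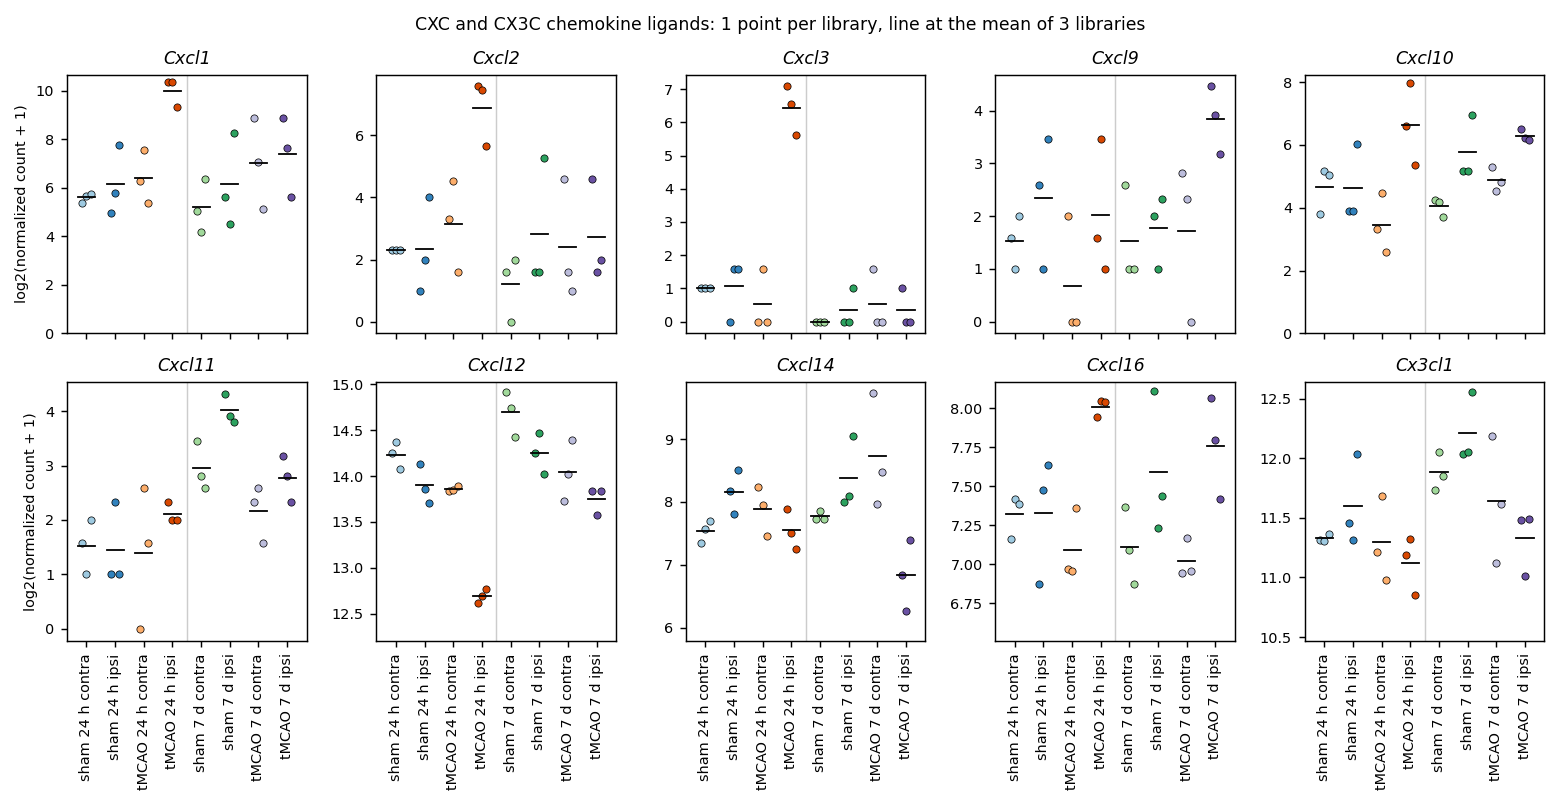
The 10 panels plot log2(normalized count + 1) of each ligand in the 24 libraries, with 1 point per library in the 8 groups on the horizontal axis and a line at the mean of 3 libraries. Cxcl1, Cxcl2 and Cxcl3 were high in the 3 tMCAO ipsilateral libraries of 24 h, where Cxcl12 was low, and Cxcl14 was low in the tMCAO ipsilateral libraries of 7 days.

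Cxcl1, Cxcl2 and Cxcl3 lie together on chromosome 5, in mm10 at 90891241 to 90893115, 90903871 to 90905938 and 90786103 to 90788093, all on the plus strand. Their promoters are shown because the genes had similar profiles over the libraries, and that of Cxcl10 because it was high in the same group. The sequences are from RefSeq (GRCm38.p6), read 5′ to 3′ from 250 bases before the RefSeq start to the last base before both this start and the deposited gene start. Capitals mark matches to GGGNNNTTCC on either strand, the core of NF-kappaB sites, and in Cxcl10 also to GAAANNGAAA, the core of interferon-stimulated response elements. Where matches on both strands overlap, they form 1 run of capitals.
Cxcl1: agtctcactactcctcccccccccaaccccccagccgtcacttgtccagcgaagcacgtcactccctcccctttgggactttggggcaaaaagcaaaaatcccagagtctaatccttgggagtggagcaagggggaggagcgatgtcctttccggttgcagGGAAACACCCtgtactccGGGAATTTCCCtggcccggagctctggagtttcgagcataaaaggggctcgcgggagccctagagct
Cxcl2: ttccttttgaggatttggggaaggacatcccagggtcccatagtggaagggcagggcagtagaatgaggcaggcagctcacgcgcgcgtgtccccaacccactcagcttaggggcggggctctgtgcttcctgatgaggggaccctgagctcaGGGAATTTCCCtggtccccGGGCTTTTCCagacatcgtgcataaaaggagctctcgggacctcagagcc
Cxcl3: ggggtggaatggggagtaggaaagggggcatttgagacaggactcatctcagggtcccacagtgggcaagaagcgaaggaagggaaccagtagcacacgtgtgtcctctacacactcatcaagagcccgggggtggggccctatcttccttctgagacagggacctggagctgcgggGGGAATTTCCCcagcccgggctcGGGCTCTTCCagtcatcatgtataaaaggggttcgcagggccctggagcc
Cxcl10: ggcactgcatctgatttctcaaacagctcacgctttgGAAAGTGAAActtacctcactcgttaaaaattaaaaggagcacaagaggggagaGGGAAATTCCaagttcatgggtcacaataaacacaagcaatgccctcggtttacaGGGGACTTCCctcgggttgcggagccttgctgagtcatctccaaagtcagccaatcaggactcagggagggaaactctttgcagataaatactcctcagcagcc
These are chr5:90890995-90891240, chr5:90903649-90903870 and chr5:90785851-90786100 on the plus strand and chr5:92348890-92349139 on the minus strand.

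Counted from -1 at the last base before the RefSeq start, the run GGGAATTTCCC lay at positions -71 to -61 in Cxcl1, -97 to -87 in Cxcl2 and -73 to -63 in Cxcl3. Each of the 3 genes held a further match within 30 bases of it. In Cxcl10 there were NF-kappaB matches at -159 to -150 and -104 to -95 and the interferon-type match at -213 to -204. Of the 8 ligands with a RefSeq promoter in the table, these 4 matched GGGNNNTTCC within 250 bases, beside 4.65% of all 32851 promoter windows of this length. GAAANNGAAA was found for Cxcl10 and Cxcl14 and in 2.98% of all windows. The STAT-type motif TTCNNNGAA matched Cxcl14 only (7.02% of all windows), TATAAA matched Cxcl3, Cxcl9 and Cx3cl1 (12.4%), and the hypoxia-type motif ACGTG matched Cxcl1 and Cxcl3 (16.6%), each searched on both strands. These are matches of letters, and binding was not measured. Promoters of Cxcl11 and Cxcl16 were not analysed here.

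Among the neutrophil-attracting ligands, Cxcl1 had 1319, 1308 and 640 normalized counts in ipsilateral vessels 24 h after tMCAO. On the contralateral side of the same surgery it had 76, 188 and 40, and in ipsilateral vessels after sham surgery 30, 55 and 215. All 3 stroke libraries were above every other library of the study, where the highest value was 477. Cxcl2 had 191, 175 and 49 in the same stroke libraries, 9, 22 and 2 contralaterally and 1, 3 and 15 after sham surgery. Here, too, the lowest stroke library was above the highest of all others, which had 38. Cxcl3 had 135, 93 and 48, whereas none of the other 21 libraries exceeded 2 and 12 were at 0. Summed over the 3 libraries, its 276 normalized counts were 138 times the 2 of the contralateral side (95% counting interval 37.8 to 1145) and 69.0 times the 4 of the sham ipsilateral libraries (26.6 to 255). These intervals cover counting error only.

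Against the sham ipsilateral libraries the log2 differences at 24 h were 3.84 (SE 0.999) for Cxcl1, 4.56 (SE 1.11) for Cxcl2 and 5.36 (SE 0.59) for Cxcl3. The value of Cxcl1 was 3.23 without sham replicate 1 and 4.63 without sham replicate 3, the library with 215 normalized counts. That of Cxcl2 ranged from 3.90 without sham replicate 1 to 5.40 without sham replicate 3 and was 5.19 without tMCAO replicate 3. Of the 9 tested ligands, 5 were called higher and 1 lower in this comparison, from which nothing is read since the list was drawn up with it known. Over all genes, 10.0% were called higher and 8.23% lower.

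Between the hemispheres of tMCAO mice at 24 h, 5 of 9 ligands were called higher and 1 lower, beside 8.52% and 5.14% of all genes. The ipsilateral libraries are shared with the comparison on which the list was drawn up, so that the p-values here are not independent of that choice, and the 5 include Cxcl3, which was in the test only through this group. The libraries did not overlap for 6 ligands, beside 40.8% of all genes. The median over the 9 ligands was 0.92 on the log2 scale and that over all genes -0.02. The difference of Cxcl3 was 5.89 (SE 0.59), and this value stayed between 5.56 and 6.42 with any library left out. Cxcl1 was 3.62 higher (SE 0.999, limma adjusted p = 0.0120), but without contralateral replicate 3 the difference was 3.10 and no longer called (adjusted p = 0.0602). For Cxcl2, the difference of 3.75 (SE 1.11, adjusted p = 0.0180) was lost from the calls without contralateral replicate 3 (2.97, adjusted p = 0.0959), ipsilateral replicate 1 (3.41, adjusted p = 0.0733) or ipsilateral replicate 2 (3.47, adjusted p = 0.0658). It was 4.44 without contralateral replicate 2 and 4.38 without ipsilateral replicate 3. Without contralateral replicate 3, 3 ligands instead of 5 were called higher.

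In ipsilateral tMCAO vessels all 3 genes were lower at 7 days than at 24 h. Both groups are those on which the list was drawn up, so that the differences between these time points are given without a test. Cxcl3 was at 1, 0 and 0 normalized counts at 7 days, with a log2 difference of -6.09 (SE 0.59). Cxcl2 had 23, 2 and 3, below every library of 24 h, with a difference of -4.17 (SE 1.11). This ranged from -5.10 without replicate 1 of 7 days to -3.60 without replicate 2 of 7 days and was -4.80 without replicate 3 of 24 h. Cxcl1 had 477, 197 and 49, all below the 24 h libraries, with a difference of -2.62 (SE 0.999). It was -3.38 without replicate 1 and -1.75 without replicate 3 of 7 days. At 7 days all 3 genes overlapped with sham ipsilateral vessels, with differences of 1.25 (SE 0.999) for Cxcl1, -0.10 (SE 1.11) for Cxcl2 and 0 for Cxcl3. Of the 9 ligands, 2 (Cxcl2 and Cxcl3) were past the limits for a call as lower between the time points and 1 (Cxcl12) as higher, beside 8.44% and 3.72% of all genes, and the libraries of 4 did not overlap, beside 34.2%. Nothing is read from these counts. The difference between the stroke effects of 7 days and 24 h against sham ipsilateral vessels was -5.36 (SE 0.83) for Cxcl3, -4.66 (SE 1.57) for Cxcl2 and -2.59 (SE 1.41) for Cxcl1, likewise a description. For it 1 of 9 ligands was past the limits as lower and 0 as higher, beside 5.68% and 2.43% of all genes. That of Cxcl2 was also past them without sham replicate 3 (-5.49) or tMCAO replicate 3 (-5.28) of 24 h or tMCAO replicate 1 of 7 days (-5.59).

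Cxcl1 was also high in single control libraries. The highest values outside the ipsilateral stroke groups were 475 in contralateral tMCAO replicate 1 of 7 days, 305 in ipsilateral sham replicate 3 of 7 days, 215 in ipsilateral sham replicate 3 of 24 h and 188 in contralateral tMCAO replicate 2 of 24 h. The same 4 libraries had 23, 38, 15 and 22 normalized counts of Cxcl2 and thus the highest levels of their groups. Cxcr2, the receptor of these ligands on neutrophils, was at 101, 86, 27 and 43 in them, against 3 to 67 in the other 14 control libraries. The neutrophil marker genes summed to 2761 to 6235 in the tMCAO ipsilateral libraries of 24 h, to 782 to 4836 in those of 7 days and to 97 to 2316 in the control libraries. Monocyte and macrophage genes summed to 8061 to 16141 in the 24 h stroke libraries, above the 5023 to 7688 of sham ipsilateral vessels. These sums overlapped with 5486 to 8252 contralaterally and 4477 to 8129 in ipsilateral tMCAO vessels of 7 days. Of that list, Arg1, with the lowest mean over all libraries (38.0 normalized counts), had means of 289 in the tMCAO ipsilateral libraries of 24 h, 0.667 in the sham ipsilateral ones and 2.33 in the tMCAO ipsilateral ones of 7 days. It was at 0 in both contralateral groups of 7 days. Lyz2, with the highest mean of the list, had 6276, 2814 and 4397 in the same order. Not every gene of the list was higher, since Cd163, picked after its values were seen, had 622 normalized counts in the 24 h stroke libraries against 789 after sham surgery. The part of these cells in the levels of Cxcl1, Cxcl2 and Cxcl3 was not tested. In the neutrophil list, S100a9 had the highest mean with 581 and Ly6g the lowest with 4.92 normalized counts. In the log2 values of the 24 libraries, the genes with profiles most like Cxcl1 were Rnd1 (r = 0.969), Csf3 (r = 0.956) and Ext1 (r = 0.942), those for Cxcl2 were Pisd (r = 0.952), Atf4 (r = 0.949) and Csf3 (r = 0.943), and those for Cxcl3 were Txnrd1 (r = 0.956), Cyr61 (r = 0.941) and Tnc (r = 0.940). Without the 3 tMCAO ipsilateral libraries of 24 h, r with Rnd1 was 0.939 for Cxcl1, whereas r with Tnc was 0.38 for Cxcl3.

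**Figure D2:**
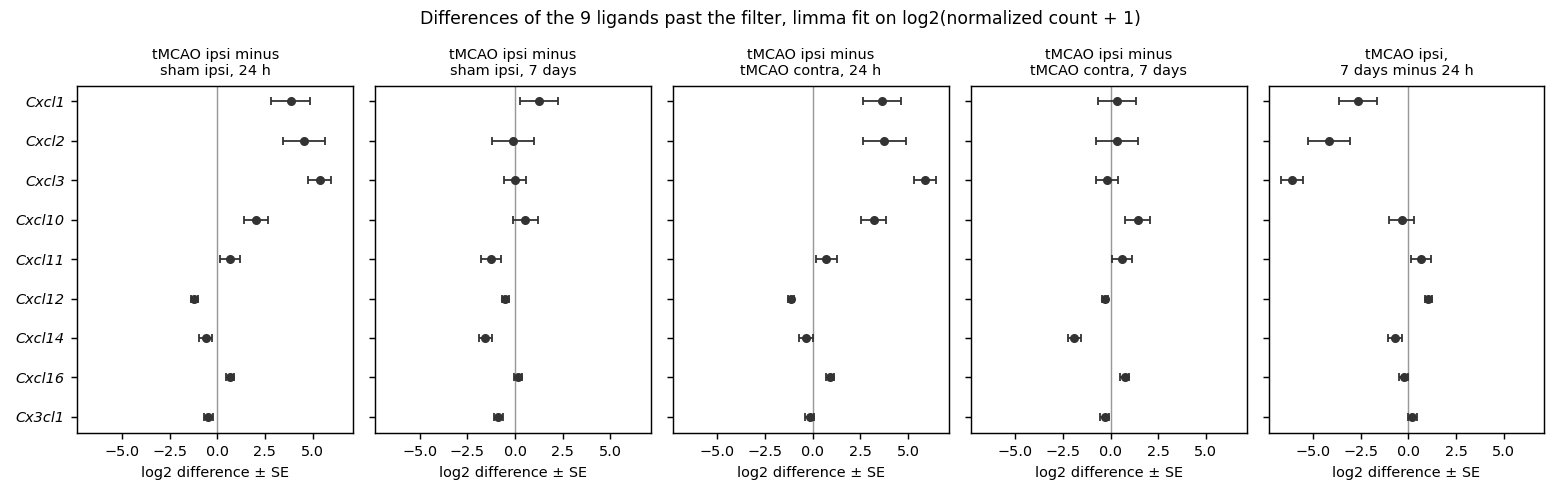
The 5 panels plot the log2 difference of each of the 9 tested ligands, with its standard error, in the comparisons of ipsilateral tMCAO vessels with sham ipsilateral vessels, with the contralateral side and between time points. At 24 h Cxcl3 had the highest difference, 5.36 against sham and 5.89 against the contralateral side, and at 7 days Cxcl14 was the lowest with -1.55 and -1.89.

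Of the CXCR3 ligands, which lie side by side on chromosome 5 (mm10, minus strand, 92321347 to 92328079 for Cxcl9, 92346638 to 92348889 for Cxcl10 and 92359544 to 92365485 for Cxcl11), only Cxcl10 was called higher on the stroke side at 24 h. It had 97, 250 and 40 normalized counts ipsilaterally and 9, 21 and 5 contralaterally, without overlap. The log2 difference was 3.19 (SE 0.65, limma adjusted p = 0.00138), with 2.53 without ipsilateral replicate 2 and 3.84 without ipsilateral replicate 3. Sham ipsilateral vessels had 14, 14 and 64, so that these groups overlapped. Against them the difference was 2.04 (SE 0.65), and it was past the limits for a call, but not when sham replicate 1 (1.68), sham replicate 2 (1.68), tMCAO replicate 1 (2.05) or tMCAO replicate 2 (1.37) was left out. Without sham replicate 3 it was 2.74 and without tMCAO replicate 3 it was 2.68.

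At 7 days Cxcl10 had 90, 74 and 70 ipsilaterally and 38, 22 and 27 contralaterally, again without overlap, but the difference of 1.42 (SE 0.65) did not pass (adjusted p = 0.159). With sham ipsilateral vessels of 7 days, at 35, 35 and 123, it overlapped. From 24 h to 7 days ipsilateral Cxcl10 differed by -0.35 (SE 0.65), and the libraries overlapped. Part of the exon sequence of Cxcl10 (5.91%) overlaps Art3 on the opposite strand, which had a mean of 620 normalized counts, and the strand setting of the counting is not given in the sources used here. Nearest to Cxcl10 in their profiles were Ada (r = 0.836), Ifi211 (r = 0.818) and Myd88 (r = 0.812).

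Cxcl9 remained near the floor. It had 21, 14 and 8 normalized counts in ipsilateral vessels 7 days after tMCAO, 6, 4 and 0 contralaterally and 3, 1 and 4 in sham ipsilateral vessels of that time. The 21 libraries of the other groups lay between 0 and 10, and the stroke library with 8 lay within their range.

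Cxcl11 was low in all libraries and had another profile. It had 19, 14 and 13 normalized counts in ipsilateral vessels 7 days after sham surgery and 1, 4 and 1 after 24 h. The log2 difference between these time points was 2.57 (SE 0.53). It was past the limits for a call, 1 of 9 ligands as higher beside 0.300% of all genes and 0 as lower beside 0.175%, and nothing is read from this since the gene entered the test through the 7 day group. It was not past them without sham replicate 1 (2.35) or 3 of 24 h (2.35) or without replicate 1 (2.42), 2 (2.62) or 3 of 7 days (2.67). Contralaterally, sham vessels had 10, 6 and 5 at 7 days and 2, 1 and 3 at 24 h, without overlap, and the difference of 1.42 (SE 0.53) was not past the limits for a call. Ipsilateral tMCAO vessels of 7 days had 8, 6 and 4, all below the sham ipsilateral libraries (difference -1.25, SE 0.53, not past the limits for a call). The deposited annotation lists Cxcl11 as a polymorphic pseudogene, and 41.7% of its exon length is overlapped by the processed pseudogene Gm2673 on the opposite strand, so that its reads are uncertain.

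Cxcl12, which retains CXCR4-bearing leukocytes at the vessel wall, was lower on the stroke side at 24 h. It is on chromosome 6 (mm10, 117168535 to 117181367, plus strand). Ipsilateral vessels had 6309, 6617 and 7006 normalized counts 24 h after tMCAO, contralateral vessels 14657, 14751 and 15158, and sham ipsilateral vessels 17886, 14806 and 13407. The 3 stroke libraries were the lowest of the 24, with the next at 12208. Against the contralateral side Cxcl12 differed by -1.16 (SE 0.16, limma adjusted p = 6.02e-05), and against sham the difference was -1.20 (SE 0.16). With each library left out in turn these values stayed between -1.20 and -1.13 and between -1.29 and -1.09.

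At 7 days ipsilateral Cxcl12 was at 14586, 12208 and 14629 normalized counts, above all libraries of 24 h, with a difference between the time points of 1.05 (SE 0.16; 1.01 to 1.14 with each library left out). At 7 days these values still lay below the sham ipsilateral libraries with 19562, 22705 and 16657. The difference of -0.50 (SE 0.16) was under the fold limit, and without sham replicate 3 it was -0.62 and past it. The contralateral side of the stroke mice had 13546, 16664 and 21518 at 7 days, which overlapped with the ipsilateral side (difference -0.30, SE 0.16, adjusted p = 0.262). The interaction of time and stroke was 0.70 (SE 0.23) for Cxcl12, not past the limits for a call with all libraries and past them without sham replicate 2 of 7 days (0.81).

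Markers of vascular cells moved in both directions in the libraries with the lowest Cxcl12. The 10 endothelial genes summed to 307195 to 349351 in ipsilateral vessels 24 h after tMCAO, against 395166 to 478014 contralaterally and 355935 to 442426 after sham surgery. Of the pericyte and mural genes, the sums were 83592 to 151605, 126762 to 183620 and 151701 to 177006 in the same order. Between the hemispheres at 24 h, 2 of 10 endothelial genes were called lower and 0 higher, beside 5.14% and 8.52% of all genes. The 2 were Slco1a4 (difference -1.33, limma adjusted p = 0.00406) and Ocln (-0.62, adjusted p = 9.91e-04). The means of Cdh5, Pecam1 and Emcn were instead higher ipsilaterally (19524, 34144 and 8335 normalized counts against 16208, 28910 and 5732). Of the mural genes 2 of 10 were called lower and 0 higher, beside the same shares of all genes. They were Rgs5 (-0.81, adjusted p = 0.00140) and Vtn (-0.60, adjusted p = 0.0378), while Pdgfrb was at 9515 against 7514. These genes were picked after their values were seen, to show both directions. Slc2a1 had the highest mean of the endothelial list (157262 normalized counts) and Emcn the lowest (6209), and in the mural list these were Rgs5 (57346) and Kcnj8 (1240). At 7 days the ipsilateral tMCAO libraries had endothelial sums of 365268 to 471886 and mural sums of 104245 to 139410. Their part in the level of Cxcl12 was not tested. The genes with profiles most like Cxcl12 were Spock2 (r = 0.929), Gm15663 (r = 0.921) and Pllp (r = 0.920), with r at 0.786, 0.769 and 0.784 without the tMCAO ipsilateral libraries of 24 h.

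Cxcl14 was lower on the stroke side at 7 days. It is on chromosome 13 (mm10, 56288643 to 56296551, minus strand). Ipsilateral tMCAO vessels had 113, 76 and 167 normalized counts, contralateral vessels 852, 249 and 354, and sham ipsilateral vessels 255, 272 and 529. Neither control group overlapped with the stroke side. Between the hemispheres the difference was -1.89 (SE 0.36, limma adjusted p = 7.73e-04), and it was called with each library left out (-2.27 to -1.39). These stroke libraries were part of a comparison on which the list was drawn up, so that this p-value is not independent of that choice. Against sham the difference was -1.55 (SE 0.36), with a range of -1.83 to -1.22. At 24 h ipsilateral tMCAO vessels had 236, 181 and 151, which overlapped with the contralateral side (301, 246 and 175; difference -0.33, SE 0.36, adjusted p = 0.538) and with sham (288, 224 and 362; difference -0.62, SE 0.36).

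Sums of astrocyte genes were also low on the stroke side at 7 days, though not every gene of the list was. The 10 astrocyte genes, of which Slc1a2 had the highest (8589 normalized counts) and Aldh1l1 the lowest mean (224), summed to 11175 to 14956 in ipsilateral tMCAO vessels of 7 days. Contralaterally they summed to 19335 to 55437 and after sham surgery ipsilaterally to 16713 to 35106. Between the hemispheres 6 of 10 were called lower and 0 higher, beside 9.98% and 3.03% of all genes, with a median of -1.16. Gfap, picked after its values were seen, instead had a mean of 4238 ipsilaterally against 3638 contralaterally and 1803 in sham ipsilateral vessels. At 24 h the astrocyte sums were 11955 to 18296 ipsilaterally after tMCAO, 14217 to 22318 contralaterally and 18588 to 28074 in sham ipsilateral vessels. They thus overlapped with the contralateral side, as Cxcl14 did, but not with sham, where Cxcl14 overlapped. Against sham ipsilateral vessels both means were lower, at 14378 against 23283 for the astrocyte sum and 189 against 291 for Cxcl14. Neuronal genes summed to 1108 to 1755 in ipsilateral tMCAO vessels of 7 days, 8205 to 24246 contralaterally and 7635 to 13444 in sham ipsilateral vessels. Of these, 10 of 10 were called lower between the hemispheres at 7 days, beside 9.98% of all genes. The library with 852 normalized counts of Cxcl14 had the highest astrocyte sum of all, 55437, and also a sum of the 10 neuronal genes of 24246, against 1108 to 13444 in the others. The part of either cell type in the level of Cxcl14 was not tested. Scg3 (r = 0.968), Mlc1 (r = 0.962) and Ntrk2 (r = 0.958) had the most similar profiles to Cxcl14 over the 24 libraries.

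**Figure D3:**
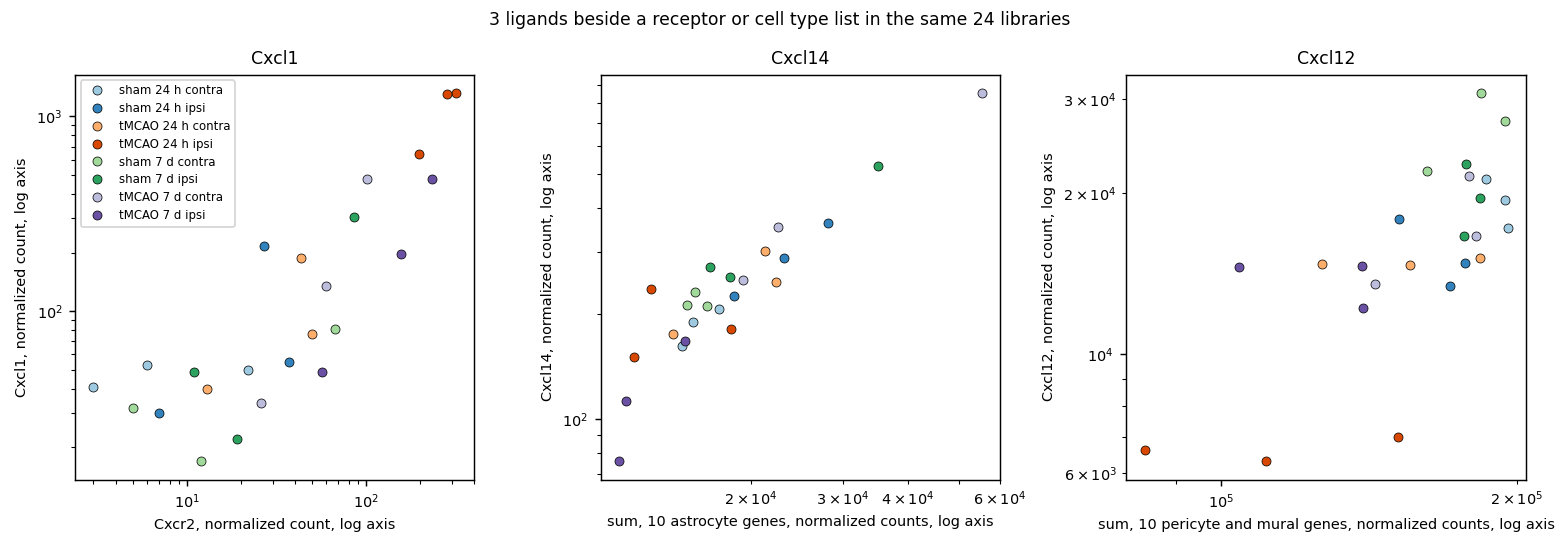
The 3 panels plot, on log axes with 1 point per library colored by group, Cxcl1 against Cxcr2, Cxcl14 against the sum of 10 astrocyte genes and Cxcl12 against the sum of 10 pericyte and mural genes, all as normalized counts. The library with 852 normalized counts of Cxcl14 has the highest astrocyte sum, and the 3 libraries with 6309 to 7006 normalized counts of Cxcl12 are the tMCAO ipsilateral libraries of 24 h.

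Of the 2 membrane-bound ligands, Cxcl16 was higher on the stroke side than contralaterally, and Cx3cl1 was lower than after sham surgery at 7 days. Cxcl16 (chromosome 11, mm10, 70453983 to 70459984, minus strand) had 245, 263 and 262 normalized counts in ipsilateral vessels 24 h after tMCAO and 124, 123 and 163 contralaterally. The difference was 0.92 (SE 0.22, limma adjusted p = 0.00504), called with each library left out. Sham ipsilateral vessels had 116, 177 and 198, with a difference of 0.68 (SE 0.22). This was past the limits for a call, but not without sham replicate 1 (0.45) or any of the tMCAO replicates (0.71, 0.66 and 0.67). At 7 days ipsilateral tMCAO vessels had 267, 221 and 170 and contralateral vessels 122, 143 and 123, without overlap. Here the difference was 0.74 (SE 0.22, adjusted p = 0.0247). It was not called without contralateral replicate 1 (0.70, adjusted p = 0.0877) or 3 (0.70, adjusted p = 0.0633) or ipsilateral replicate 1 (0.58, adjusted p = 0.149) or 2 (0.72, adjusted p = 0.0641). Sham ipsilateral vessels of 7 days had 275, 149 and 172 and overlapped with the stroke side (difference 0.17, SE 0.22). In sham mice, too, ipsilateral Cxcl16 was above the contralateral side at 7 days, by 0.48 (SE 0.22), with overlap and without a call. At 24 h this difference was 0.01 (SE 0.22). Ipsilateral Cxcl16 was higher in 5 of 6 same-numbered pairs of sham libraries. Zmynd15 on the opposite strand overlaps 18.3% of the exon length of Cxcl16 and had a mean of 8.63 normalized counts.

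Between the hemispheres at 7 days, Cxcl16 was the 1 ligand of 9 called higher and Cxcl14 the 1 called lower, beside 3.03% and 9.98% of all genes. With Cxcl10 they were the 3 ligands whose libraries did not overlap, beside 25.3% of all genes. The median over the 9 ligands was 0.33 and that over all genes 0.03. The ipsilateral libraries of 7 days were among those on which the list was drawn up, so that these calls are not independent of that choice. Profiles most like that of Cxcl16 were those of Emilin1 (r = 0.880), Nckap1l (r = 0.873) and Ctsb (r = 0.870).

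Cx3cl1 (chromosome 8, mm10, 94772009 to 94782427, plus strand) had 2851, 2069 and 2876 normalized counts in ipsilateral vessels 7 days after tMCAO and 4198, 4247 and 6017 after sham surgery, without overlap. The difference was -0.89 (SE 0.24). It was past the limits for a call, but not without sham replicate 3 (-0.72) or tMCAO replicate 2 (-0.73). With Cxcl14, it was 1 of 2 ligands called lower against sham ipsilateral vessels at 7 days, and 0 were called higher. Over all genes, 9.95% were called lower and 3.27% higher. The contralateral side had 4657, 2232 and 3142, which overlapped with the stroke side (difference -0.31, SE 0.24, adjusted p = 0.453). At 24 h, values of 2328, 2566 and 1852 overlapped with 2380, 3290 and 2022 contralaterally (difference -0.17, SE 0.24, adjusted p = 0.637) and with 2805, 2541 and 4193 after sham surgery. Ppme1 (r = 0.878), Gm5607 (r = 0.856) and Il17d (r = 0.856) had the profiles most like that of Cx3cl1.

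Among the control groups, no difference of a ligand was past the limits for a call except that of Cxcl11 between the sham time points. Between the hemispheres of sham mice, 0 of 9 ligands and 0% of all genes were called by limma at both time points, with 367 genes at 24 h and 359 at 7 days at an unadjusted p under 0.05. The libraries did not overlap for 1 ligand (Cxcl14) at 24 h, beside 11.5% of all genes, and for 3 (Cxcl10, Cxcl11 and Cxcl14) at 7 days, beside 7.00%. Cxcl10 had 35, 35 and 123 normalized counts ipsilaterally and 18, 17 and 12 contralaterally at 7 days, a difference of 1.73 (SE 0.65, adjusted p of 1). Cxcl12 was lower ipsilaterally in 6 of 6 same-numbered pairs of sham libraries, and Cxcl14 was higher in 6 of 6. In the limma fit of the 8 groups, which leaves the pairing out, Cxcl12 differed by -0.33 and -0.44 (SE 0.16) at 24 h and 7 days. Cxcl14 differed by 0.62 and 0.61 (SE 0.36), and each of these had an adjusted p of 1. Astrocyte sums were also higher ipsilaterally, with 18588 to 28074 against 14795 to 17373 at 24 h, and their part in this was not tested.

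Between the contralateral sides of tMCAO and sham mice, 0 ligands were called at 24 h beside 0% of all genes (405 genes at an unadjusted p under 0.05 by limma) and 0 at 7 days beside 0.0313% (1639 genes). The libraries of 1 ligand (Cxcl12) did not overlap at 24 h, beside 8.20% of all genes, and those of 3 (Cxcl10, Cxcl12 and Cxcl14) at 7 days, beside 9.80%. Cxcl12 had 13546, 16664 and 21518 normalized counts contralaterally 7 days after tMCAO and 30793, 27325 and 22021 after sham surgery, all lower, and the difference of -0.64 (SE 0.16) did not pass (adjusted p = 0.213). In sham contralateral vessels, 0 ligands were called between 7 days and 24 h beside 0.332% of all genes (1729 at an unadjusted p under 0.05 by limma). The libraries of 6 ligands did not overlap there, beside 17.6% of all genes. Of these, Cxcl11, Cxcl12, Cxcl14 and Cx3cl1 were higher at 7 days and Cxcl2 and Cxcl3 lower. Group means of Cxcl2, Cxcl3 and Cxcl11 in these vessels were at most 7 normalized counts. In sham ipsilateral vessels the libraries of 2 ligands (Cxcl11 and Cx3cl1, both higher at 7 days) did not overlap, beside 22.0%. Cx3cl1 was without overlap higher at 7 days in both sham hemispheres, by differences of 0.61 ipsilaterally and 0.55 contralaterally (SE 0.24) that did not pass (adjusted p = 0.239 and 0.403).

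The receptors of the ligands were followed as a list of 9 genes, of which 7 were tested. This list, the cell type lists above and the lists that follow were chosen with earlier results of these data known. Their p-values are therefore not independent of that choice, and their counts of genes called are a description. Between the hemispheres of tMCAO mice at 24 h, 3 of 7 receptors were called higher and 0 lower, beside 8.52% and 5.14% of all genes. Their median was 0.83 beside -0.02. Cxcr2 had 318, 283 and 198 normalized counts ipsilaterally and 50, 43 and 13 contralaterally (difference 3.05, SE 0.89, limma adjusted p = 0.0168). Ackr1, which binds many inflammatory chemokines on venular endothelium without signalling, had 10655, 13195 and 11323 against 923, 2012 and 336 (difference 3.77, SE 0.87, adjusted p = 0.00352). Cxcr4, the receptor of CXCL12, had 342, 219 and 219 against 148, 119 and 165 (difference 0.83, SE 0.29, adjusted p = 0.0406). The group with the lowest Cxcl12 thus had more of its receptor than the contralateral side. In sham ipsilateral vessels of 24 h, means of Cxcr2, Ackr1 and Cxcr4 were 23.7, 1271 and 210. In ipsilateral tMCAO vessels they were 266, 11724 and 260.

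At 7 days 2 of 7 receptors were called higher between the hemispheres and 0 lower, beside 3.03% and 9.98% of all genes. Cxcr4 had 357, 205 and 246 ipsilaterally and 103, 55 and 70 contralaterally (difference 1.82, SE 0.29, adjusted p = 1.09e-04). Cx3cr1, the receptor of fractalkine on microglia and monocytes, had 419, 536 and 537 against 119, 171 and 158 (difference 1.74, SE 0.43, adjusted p = 0.00678). These differences came with a low contralateral side. Sham ipsilateral vessels of 7 days had means of 198 for Cxcr4 and 267 for Cx3cr1, above every contralateral tMCAO library. In ipsilateral tMCAO vessels the means were 269 and 497. Ackr1 was high on both sides, with 20573, 12530 and 4740 ipsilaterally and 9041, 9925 and 2463 contralaterally, and the sides overlapped (difference 0.82, SE 0.87, adjusted p = 0.625). From 24 h to 7 days 0 of the 7 receptors were called ipsilaterally by limma, where 5272 of all genes had an unadjusted p under 0.05. Ackr3 had values of 1426 to 3564 over all libraries and Cxcr3 of 1 to 19, and neither was called between the hemispheres. Cxcr6, the receptor of CXCL16, had at most 15 normalized counts in a library and Cxcr5 at most 11. Cxcr1 was not analysed here.

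**Figure D4:**
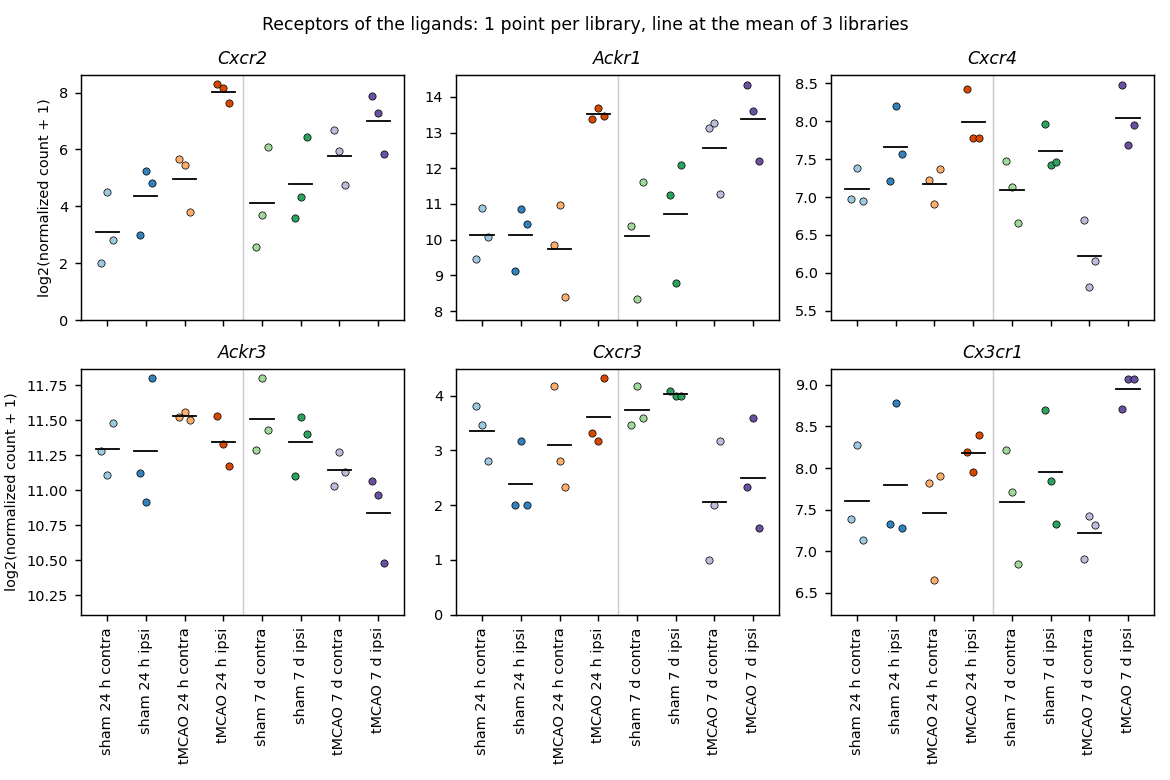
The 6 panels plot log2(normalized count + 1) of Cxcr2, Ackr1, Cxcr4, Ackr3, Cxcr3 and Cx3cr1 in the 24 libraries, with 1 point per library in the 8 groups and a line at the mean of 3 libraries. Cxcr2 and Ackr1 were higher in all 3 ipsilateral tMCAO libraries than in the contralateral ones at 24 h, Cxcr4 was so at both time points, and Cx3cr1 lay at 419 to 537 normalized counts ipsilaterally at 7 days against 119 to 171.

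Of other CXC ligands outside the list, Cxcl5, a further CXCR2 ligand, had 21, 15 and 14 normalized counts in ipsilateral vessels 24 h after tMCAO and 0 to 8 in all other libraries, and its mean was under the filter. Pf4, a platelet chemokine, had 497, 441 and 418 in these libraries and 234, 269 and 266 contralaterally (difference 0.81, SE 0.28, limma adjusted p = 0.0413). To 7 days it fell by 2.005 (SE 0.28, adjusted p = 1.07e-04), to 117, 112 and 106. Ppbp, also of platelets, had 82, 87 and 45 against 13, 133 and 14 at 24 h, with overlap. Cxcl17 was at 28 or less in every library, and Cxcl13 and Cxcl15 were not analysed here.

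Among proteases that cut these ligands, Mmp9 had 513, 350 and 282 normalized counts in ipsilateral vessels 24 h after tMCAO and 66, 60 and 58 contralaterally (difference 2.58, SE 0.51, limma adjusted p = 0.00108). From there it fell by 1.59 (SE 0.51, adjusted p = 0.0325) to 7 days. Dpp4, which trims CXCL12 and the CXCR3 ligands, was lower on the stroke side at 24 h, with 107, 111 and 144 against 241, 210 and 285 (difference -1.02, SE 0.33, adjusted p = 0.0301). Adam10 and Adam17, the sheddases of CX3CL1 and CXCL16, had 3471 to 5993 and 1325 to 1844 normalized counts over the 24 libraries and were called in none of these comparisons between hemispheres or times. In all, 1 of 5 tested genes of this list was called higher and 1 lower between hemispheres at 24 h, beside 8.52% and 5.14% of all genes.

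Genes regulated like the ligands were taken from lists of 12 NF-kappaB targets and 16 interferon response genes. These lists, too, were chosen with earlier results of these data known. Between hemispheres at 24 h, 5 of the 12 NF-kappaB targets were called higher and 0 lower, beside 8.52% and 5.14% of all genes, with a median of 1.01 beside -0.02. Those with the highest differences were Csf3 (5.50, SE 1.59, limma adjusted p = 0.0158), which codes for the granulocyte growth factor G-CSF, and Sele (4.50, SE 1.46, adjusted p = 0.0295), which codes for E-selectin. At 7 days 0 of 12 were called by limma, with a median of 0.32, where 4305 of all genes had an unadjusted p under 0.05. Csf3 fell by 5.67 between the time points (SE 1.59, adjusted p = 0.0171), the 1 gene of this list called there, beside 8.44% of all genes called lower.

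The interferon response genes, of the kind that Cxcl10 belongs to, were called mostly between the time points. Between hemispheres at 24 h, 2 of 16 were called higher and 1 lower, beside 8.52% and 5.14% of all genes, with a median of -0.07. At 7 days 3 were called higher and 0 lower, beside 3.03% and 9.98%, with a median of 0.48, led by Irf7 (0.96, SE 0.25, adjusted p = 0.0103) and Ifit3 (0.90, SE 0.26, adjusted p = 0.0172). This difference came with a low contralateral side. The summed level of the 16 genes was 22149 to 24467 ipsilaterally and 15140 to 17795 contralaterally after tMCAO, against 21517 to 25761 and 22350 to 25666 after sham surgery. In ipsilateral tMCAO vessels 10 of 16 rose from 24 h to 7 days and 0 fell, beside 3.72% and 8.44% of all genes, with a median of 0.79 beside -0.04 over all genes. In sham vessels 4 of 16 ipsilaterally and 5 of 16 contralaterally were called higher at 7 days, beside 0.300% of all genes higher in the first and 0.332% in either direction in the second, with medians of 0.95 and 0.98, and Gbp3 was the highest in both (1.62 and 1.56, SE 0.21, adjusted p = 0.00103 and 0.00256). Within these lists, Nfkbia had the highest mean of the NF-kappaB targets and Csf3 the lowest, and of the interferon genes these were Gbp2 and Mx1.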

How the data were processed

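RNA from microvessels of 24 pools of mouse brain hemispheres, with the hemispheres of a brain in separate pools, was sequenced from stranded mRNA libraries. The authors aligned reads to mm10 (GRCm38), excluded reads that matched several genes, divided counts by DESeq2 size factors and rounded them. The deposited values are thus a score relative to the 24 libraries, not raw counts, and depth is known only as normalized totals. The submitters' processing notes name STAR 2.5.2b, featureCounts 1.5.1 and DESeq2 1.6.2. Groups were taken from the labels. The members and all gene lists were chosen with earlier results of these data known.

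Log2(value + 1) of genes with a mean above 5 was fitted with limma 3.58.1 in R 4.3.3 (mean-variance trend, 8 groups, Benjamini-Hochberg adjustment), after testing on simulated data. A call needed an adjusted p under 0.05 and a fold above 1.5. All ligands, the genes of the receptor, other ligand and protease lists, the 3 genes nearest to each ligand by Pearson's r, and the highest and lowest genes of the other lists were named. Python 3.11.15 was used for tables, figures and promoter motifs, and GENCODE vM21 for exon lengths. Of the exon sequence of Cxcl2, 7.79% of runs of 30 bases are shared with Cxcl3. Same-numbered hemispheres of sham mice deviated together (lowest r 0.145 at 24 h and 0.325 at 7 days) and were taken as paired by the numbers in the labels. A block for the pair changed no call there. Alternatives covered the pseudocount, filters, centring, the groups in the fit, the fold limit, a replicate block, each library left out, and, chosen after seeing the data, 2 libraries of high Cxcl1 left out together.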

Additional observations from a re-analysis of the deposited data

Results flagged for a closer look

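For 1 ligand, Cxcl3, the stroke effect against sham ipsilateral vessels at 7 days minus that at 24 h was past the limits for a call in the limma fit. The effect was 5.36 on the log2 scale at 24 h and 0 at 7 days, a difference of -5.36 (SE 0.83), and it stayed between -5.76 and -4.83 with each library left out. Over all genes, 5.68% were called lower and 2.43% higher in this way. The value is a description and not a test, since the list was drawn up on both comparisons and Cxcl3 was among the genes tested only through the ipsilateral tMCAO libraries of 24 h.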

How the results depend on the processing

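Of the ligand differences past the limits for a call in the main fit or an alternative, none reversed under any alternative. Differences never past these limits were not checked for a reversal. Of those checked, 0 changed side under median centring or without the filter. Centring nevertheless shifted the median of all genes by 0.11 on the log2 scale between 7 days and 24 h in ipsilateral tMCAO vessels. For the interaction the shift was 0.10. With a minimum mean of 20, Cxcl3 and Cxcl11 were no longer tested, so that 0 instead of 1 ligand was called lower for the interaction, 1 instead of 2 lower between the time points after tMCAO and 0 instead of 1 higher between those of sham ipsilateral vessels. The last count was also 0 with a pseudocount of 0.5, with only the compared groups in the fit and without the 2 libraries of high Cxcl1. Leaving out these 2 libraries gave 0 instead of 1 ligand called higher between the tMCAO hemispheres at 7 days.

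Same-numbered hemispheres of tMCAO mice did not all deviate together (lowest r 0.0658 at 24 h and 0.0593 at 7 days), although every library correlated best with its own number, a hint from the data and not the design. With the replicate block, 2 instead of 1 ligand were called higher between these hemispheres at 7 days, the second being Cxcl10 (adjusted p = 0.0335), and no other count of called ligands changed by over 1.5 times. The libraries left out one at a time gave 3 to 5 ligands called higher at 24 h, both against sham and against the contralateral side, 1 to 2 lower at 7 days against sham, 0 to 1 higher at 7 days against the contralateral side, 1 to 3 lower between the time points after tMCAO, 0 to 1 higher between those of sham ipsilateral vessels, and 0 to 1 higher and 1 to 2 lower for the interaction. The cause of these changes was not tested. In control libraries Cxcl3 was close to 0 normalized counts, and Cxcl2, Cxcl9 and Cxcl11 were low, which limits what can be seen there. The highest control group means were 14 for Cxcl2 and 15.3 for Cxcl11, both in sham ipsilateral vessels of 7 days.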
